A study of Mus musculus with 48 samples.

Results

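The 12 libraries described here were made from left nodose ganglia collected in the light phase, 6 from HepDKO mice and 6 from Control mice, out of 48 libraries in the series. They were chosen by their labels alone: tissue, genotype and collection at ZT4 or ZT10, hours after lights on. Each combination of genotype and time has 3 libraries, and each library pools the ganglia of 4 mice, so that the spread between libraries is a spread between pools. All mice were male, C57Bl/6J, Rev-erba/b flox/flox (Nr1d1 and Nr1d2), aged 10 to 12 weeks, fed chow ad libitum and kept at 27 C in 12 h of light and 12 h of dark. HepDKO mice had received AAV8-TBG-Cre by tail vein at 6 to 10 weeks of age, and Control mice AAV8-TBG-EGFP, 2 to 4 weeks before collection. The TBG promoter is active in hepatocytes, so the floxed genes were targeted in the liver, and the ganglion was not a target in either group. Whether any recombination took place in the ganglion was not tested. No liver library is among the 48, so the deletion itself is not checked here. The comparison asks whether loss of REV-ERB from hepatocytes is accompanied by a change of transcript levels in the ganglion that houses vagal sensory neurons.

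The nodose ganglion holds the cell bodies of vagal afferent neurons, which carry signals from the gut, liver and other viscera to the brainstem. Its neurons lie among satellite glia and Schwann cells. REV-ERB alpha and beta are nuclear receptors that bind DNA at elements containing AGGTCA and repress transcription, with Arntl (BMAL1) and Npas2 among their known targets. CLOCK or NPAS2 paired with BMAL1 drives the Per, Cry and Nr1d genes, which closes the loop.

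Total counts per library ran from 1813994 in the first Control library at ZT4, the shallowest, to 10422914 in the second Control library at ZT10, with a median of 6424652. A pair of libraries stood apart. The second HepDKO library at ZT10 held 1694 counts of Xist, the transcript of the inactive X chromosome of females, against 1 to 13 in the other 11, although all mice were labelled male. Its hepatocyte marker share was also the highest, 0.0305% of counts. The shallow Control library held the smallest share of muscle counts and the largest share of neuron counts.

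The markers of the labelled tissue were checked first, in TMM-scaled CPM (counts relative to library size, corrected with edgeR's trimmed-mean factors). Mbp, a major myelin gene of Schwann cells, had a median level of 6671 CPM over the 12 libraries. Neuronal genes were low: Uchl1, a ubiquitin hydrolase abundant in neurons, had a median of 11.1 CPM, Stmn2, a growth-cone protein, 9.23 CPM, and Snap25, a synaptic vesicle fusion protein, 7.41 CPM. P2rx2, an ATP receptor of nodose neurons, had 5 counts, and Slc17a6, the vesicular glutamate transporter of sensory neurons, had 18 counts in 9 libraries. Of 25 genes of vagal sensory neurons, 6 had enough counts to be tested, and the receptors Glp1r and Cckar had 2 counts each in total. The libraries labelled nodose ganglion therefore carried myelinating Schwann cell transcripts and very little transcript of nodose neurons. In the shallowest library a count of 0 allows a share of up to 0.000165% (3 counts of the total). In pooled tissue such as this, fewer cells of a type and less RNA per cell cannot be told apart.

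Skeletal muscle was a large component of every library. The summed counts of 16 muscle fibre genes, among them Ttn (titin, the molecular spring of the sarcomere), Myh4 (the fast IIb myosin heavy chain) and Acta1 (skeletal alpha-actin), made up 3.95% to 19.4% of all counts. In the Control libraries the share was 3.95%, 9.63% and 11.5% at ZT4, and 19.4%, 18.02% and 10.1% at ZT10. In the HepDKO libraries it was 12.1%, 9.86% and 14.03% at ZT4, and 10.47%, 15.9% and 13.1% at ZT10. The ranges overlapped between the genotypes, with 12.1% ± 5.75 (SD, n = 6) in Control and 12.6% ± 2.25 (SD, n = 6) in HepDKO. The 2 lowest Control values stood at ZT4 and the 2 highest at ZT10. Ttn alone took 2.02% to 8.43% of the counts. The 95% Wilson interval of the lowest muscle share ran from 3.92% to 3.98%, and intervals and floors here cover counting error only, since no molecular identifiers are described.

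Fat contributed much less. The 9 white adipocyte genes, among them Adipoq (the hormone adiponectin), Plin1 (a lipid droplet coat protein) and Fabp4 (a fatty acid carrier), took 0.116% ± 0.0609 (SD, n = 6) of counts in Control and 0.119% ± 0.0491 (SD, n = 6) in HepDKO. The 6 brown adipocyte genes, among them Ucp1, the uncoupling protein of brown fat, took 0.0175% ± 0.0113 (SD, n = 6) and 0.0131% ± 0.00271 (SD, n = 6). Adipoq ran from 14.3 to 181 CPM in Control libraries, and from 21.5 to 140 CPM in HepDKO libraries, so that fat content varied over a wide and overlapping range in both.

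**Figure D1:**
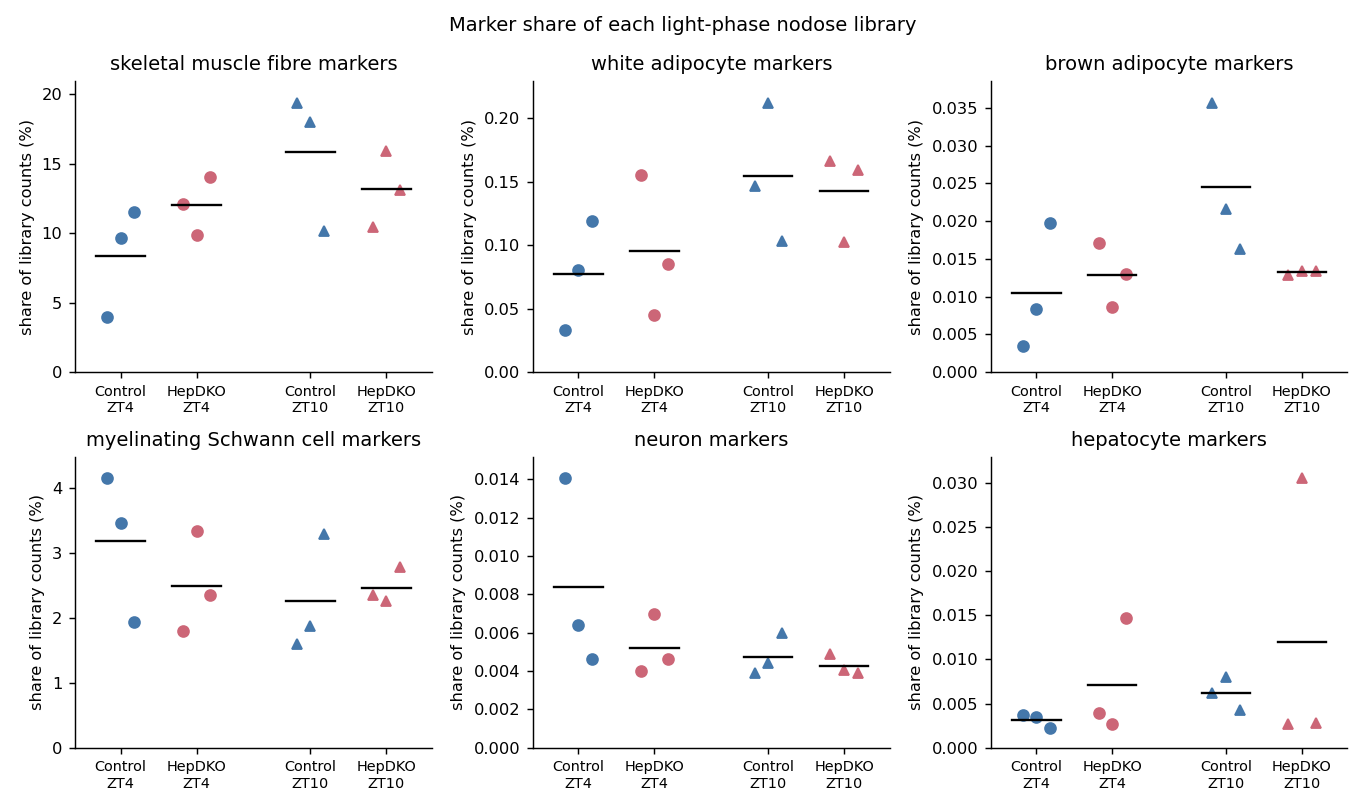
Share of each library's counts, in percent, taken by the summed markers of 6 cell types, with 1 point per library, circles for ZT4, triangles for ZT10, blue for Control, red for HepDKO and a bar at the mean of 3. Muscle shares ran from 3.95% to 19.4% and overlapped between genotypes, the first Control library at ZT4 stood highest for neuron markers (0.0141%), and the second HepDKO library at ZT10 stood highest for hepatocyte markers (0.0305%).

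Neither the library total nor any of 5 marker shares differed between genotypes beyond the spread of the libraries. The test was an exact two-sided permutation of genotype within each time point, over all 400 arrangements, on log2 shares. The difference HepDKO minus Control was 0.21 in log2 muscle share (exact p = 0.6), 0.11 in white adipocyte share (exact p = 0.755), -0.11 in brown adipocyte share (exact p = 0.83), -0.07 in myelinating Schwann cell share (exact p = 0.795) and -0.35 in neuron share (exact permutation p = 0.275). The adjusted exact permutation p over the 6 tests was 0.83 for each of them. Without the shallow Control library the differences were -0.03 for muscle, -0.15 for white adipocytes, -0.43 for brown adipocytes, 0.05 for Schwann cells and -0.12 for neurons, so that 3 of the 5 changed sign, and the adjusted exact permutation p was 0.965 for each. Without the library with Xist the white adipocyte difference was 0.22, the muscle difference 0.13 and the Schwann cell difference -0.04. The spread of the log2 muscle share within a genotype, 0.61 (SD), was larger than its difference between genotypes.

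The first principal component of log2 CPM carried 38.01% of the variance and followed the muscle score, the mean log2 CPM of the 16 muscle genes, over these 12 (r = 0.99 by Pearson, rho = 0.98 by Spearman, each with a permutation p of 1e-05, the smallest that 100000 resamples can give, adjusted 4e-05 over 4 relations). The muscle genes were part of the component, so that the relation is in part built in. Without the 2 libraries farthest from the median score r was 0.96, and it was 1.00 within Control and 0.93 within HepDKO. The Schwann score ran the other way (r = -0.79, rho = -0.89, permutation p = 0.00072 and 0.00017, adjusted 0.00144 and 0.00034). The white adipocyte score (r = 0.80, rho = 0.67, permutation p = 0.00141 and 0.0203, adjusted 0.00188 and 0.0271) had r = 0.49 without its 2 farthest libraries. The log2 library total (r = 0.88, rho = 0.62, permutation p = 0.00246 and 0.0375, adjusted to the same values) also had r = 0.49, so both of those relations rest on few libraries. The first Control library at ZT4 was among the 2 farthest for the muscle score, the fat score and the total. With time point and genotype in the same edgeR fit, the muscle score had an adjusted p under 0.05 in 3168 of 14401 genes (22%), the brown fat score in 1274 of 14411 (8.84%) and the white fat score in 88 of 14408 (0.611%). Without the shallow Control library the muscle score reached it in 2745 genes (18.8%) and the white fat score in 44 (0.301%). These coefficients were tested after the data had been seen.

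Genotype reached that level in no gene. In edgeR's quasi-likelihood test with time point in the fit, 0 of 14417 genes (0%) had a Benjamini-Hochberg adjusted p under 0.05, and the lowest adjusted p was 0.99992. At unadjusted p under 0.05, 157 genes were higher (1.09%) and 159 lower (1.1%) in HepDKO, and the median log2 fold change over all genes was 0.00. limma-voom also called 0 genes, and DESeq2 called 1, Nudc. All 6 HepDKO libraries lay above all 6 Control libraries in 7 genes (0.0486%): Cep72, Edem1, Glb1l, Slc1a4, Smarcal1, Tube1 and Zfx. All 6 lay below in 6 genes (0.0416%): Col4a3bp, Nudc, Pmepa1, Spop, Zc3h13 and Zmat2. These 13 were named after their values were seen, and with the exception of Nudc they did not pass by any of the 3 tools.

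Nudc, a dynein-associated protein needed for nuclear positioning and cell division (chr4:133532542-133546027, GRCm38), had the lowest p. Its level ran from 55.0 to 67.2 CPM with a median of 64.6 in the 6 Control libraries, and from 44.0 to 51.9 CPM with a median of 50.05 in the 6 HepDKO libraries. The groups did not overlap. The log2 fold change was -0.36 (SE 0.071, unadjusted p = 0.000144). Its adjusted p was 0.99992 in edgeR and 0.048 in DESeq2, and from 0.63 to 1 under the other alternatives, with the lowest of these when 1 surrogate variable entered the fit.

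Cox6a1, a subunit of cytochrome c oxidase outside muscle, had a median of 66.1 CPM (50.8 to 67.6) in Control and 47.1 CPM (43.5 to 55.7) in HepDKO libraries. Here 4 of 6 HepDKO libraries lay below every Control library, and the log2 fold change was -0.37 (SE 0.092). Zmat2, a zinc finger protein of the spliceosome, had a median of 58.2 CPM (51.9 to 60.9) in Control and 49.5 CPM (43.5 to 50.4) in HepDKO, without overlap. Upf3a, a factor of nonsense-mediated mRNA decay, had a median of 38.5 CPM (31.2 to 51.1) against 29.4 CPM (24.2 to 31.8), and Piwil2, a PIWI protein of the germline, 4.55 CPM (3.00 to 8.12) against 2.18 CPM (1.74 to 3.62). In each of the last 2 genes 5 of 6 HepDKO libraries lay below every Control library. The other 5 of the 10 genes with the lowest p among those lower in HepDKO were Muc1 (log2 fold change -1.54), Cspg5 (-0.78), Snhg3 (-0.60), Lrrc47 (-0.35) and Polr3gl (-0.27). None of the 10 passed adjustment in edgeR.

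Among genes higher in HepDKO, Meis2, a homeodomain factor, had a median of 2.08 CPM (1.91 to 3.33) in Control and 4.00 CPM (2.83 to 5.21) in HepDKO, Igsf9b, an adhesion protein of synapses, 16.3 CPM (14.3 to 17.7) against 21.4 CPM (16.5 to 24.0), and Smyd5, a methyltransferase, 9.24 CPM (5.88 to 10.6) against 12.1 CPM (10.0 to 12.9). These 3 groups of values overlapped in 1 or 2 HepDKO libraries. Others among the 10 with the lowest p were Mmp13 (log2 fold change 4.92), Mettl7b (1.02), 5430427O19Rik (0.93), Gm4793 (0.87), Pitpnm3 (0.53) and Exog (0.51), and again none of the 10 passed adjustment.

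Mmp13, a collagenase, rests on few libraries. It had 46.1 CPM in the second HepDKO library at ZT10 and 8.73 CPM in the first at ZT4, and at most 2.03 CPM in the other 4, while the Control libraries ran from 0 to 1.57 CPM. Without the library with Xist its log2 fold change was 2.57 in place of 4.92. Mettl7b, a methyltransferase found in liver, was also highest in that library, at 4.45 CPM, and its log2 fold change without it was 0.73 in place of 1.02.

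**Figure D2:**
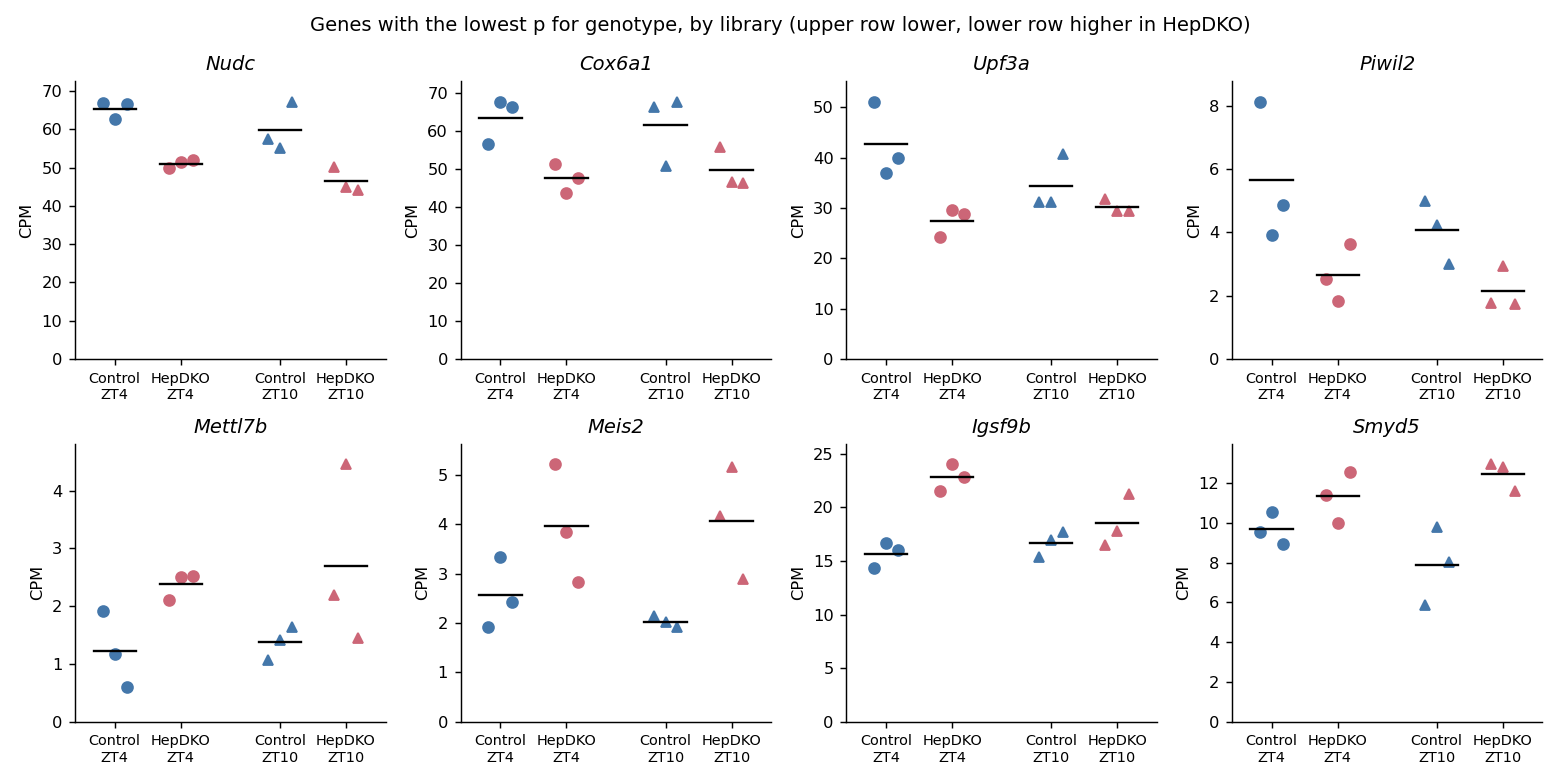
TMM-scaled CPM of 8 of the genes with the lowest p for genotype, with 1 point per library, circles for ZT4, triangles for ZT10, blue for Control, red for HepDKO and a bar at the mean of 3. HepDKO points of Nudc lie between 44.0 and 51.9 CPM, all below the Control points, and in the other 7 genes the 2 genotypes overlap in at least 1 library.

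Both targeted genes were measured in the ganglion. Nr1d1 had a median of 87.8 CPM (52.1 to 121) in Control and 97.8 CPM (74.9 to 128) in HepDKO libraries, with a log2 fold change of 0.15 (SE 0.20). Nr1d2 had a median of 179.7 CPM (86.9 to 265) and 193 CPM (106 to 254), with 0.05 (SE 0.19). The 2 genotypes overlapped in both genes. Of 19 core clock genes tested, 0 were at unadjusted p under 0.05 for genotype, and their median log2 fold change was -0.02.

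The 36 gene lists held 518 distinct tested genes. Of these, 8 were higher (1.54%) and 10 lower (1.93%) in HepDKO at unadjusted p under 0.05, against 1.09% and 1.1% of all genes, and 0 passed adjustment. The paragraphs that follow go through the lists that hold those 18 genes. Every other list had 0 genes at that level, among them the 16 muscle fibre genes, the 9 white adipocyte genes, 15 immediate early genes, 23 interferon-stimulated genes, 13 receptors for metabolic and liver-derived signals, 7 nerve injury genes and 20 genes of cholesterol synthesis and uptake.

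Inflammatory genes gave the largest count in one direction. Of 11 tested, 4 were higher in HepDKO and 0 lower at unadjusted p under 0.05, with a median log2 fold change of 0.11 over the 11. The median ran from 0.00 without the first HepDKO library at ZT10 to 0.20 without the library with Xist, and was 0.02 without the first HepDKO library at ZT4. Ccl2, a chemokine for monocytes, had a median of 2.11 CPM (1.01 to 4.26) in Control and 3.47 CPM (2.46 to 5.03) in HepDKO. Ptgs2, the inducible cyclooxygenase, had a median of 0.851 CPM (0.196 to 1.36) and 1.57 CPM (0.629 to 3.07). Il1r1, the receptor for interleukin 1, had a median of 25.5 CPM (19.6 to 33.7) and 30.1 CPM (28.1 to 40.7). Il1b itself had 1.49 CPM (0.713 to 1.91) and 2.01 CPM (1.00 to 7.89), the highest in the first HepDKO library at ZT4. The values overlapped in all 4 genes. Leaving out 1 library at a time gave 0 to 3 in place of 4 for each of the 12 libraries: 1 without the shallow Control library, 2 without the library with Xist, and 0 without the first Control or the first HepDKO library at ZT10. It was 1 by limma-voom. Macrophage markers, as a measure of another source of these transcripts, had a median log2 fold change of 0.16 (0.09 without the shallow Control library) with 0 of 9 at that level, and their summed share was 0.0422% ± 0.0106 (SD, n = 6) in Control and 0.0470% ± 0.0103 (SD, n = 6) in HepDKO. Markers of other immune cells also had positive fold changes, in 5 of 5 T cell genes (median 0.26), 5 of 5 neutrophil and mast cell genes (0.25) and 6 of 6 B cell genes (0.17), with 0 at that level. Positive signs were not particular to immune cells. They held for 9 of 9 fibroblast genes (0.12), 8 of 9 endothelial genes (0.11) and 6 of 7 smooth muscle and pericyte genes (0.05). They held for 1 of 10 myelinating Schwann cell genes and 0 of 6 genes of non-myelinating Schwann cells and satellite glia. S100a9, a calcium-binding protein of neutrophils, was highest in the same HepDKO library as Il1b, at 46.05 CPM, against 5.04 to 19.7 CPM in the other 11. The part of these cells in the count was not tested.

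Neuronal genes had mostly negative fold changes, 8 of 9, and a median near 0 once 1 Control library was left out. Of 9 tested, 0 were higher and 2 lower at unadjusted p under 0.05, and the median log2 fold change was -0.27. Snap25 had a median of 9.70 CPM (6.82 to 29.1) in Control and 5.28 CPM (3.90 to 11.5) in HepDKO, with a log2 fold change of -0.88 (SE 0.30). Nefm, the medium neurofilament subunit, had 3.78 CPM (2.67 to 12.4) and 2.89 CPM (2.17 to 3.34), with -0.78 (SE 0.33). Both maxima stood in the shallow Control library at ZT4. Without it the median of the list was -0.03, the log2 fold change was -0.60 for Snap25 and -0.47 for Nefm, and Snap25 was the 1 gene of the list at that level. Chgb, a granin of secretory vesicles from the list of sympathetic neurons, had a log2 fold change of -1.28 (SE 0.45) and was also highest in that library, at 7.64 CPM. Without it the log2 fold change of Chgb was -1.04 (SE 0.45). Glial markers were mostly negative too, in 6 of 6 genes of non-myelinating Schwann cells and satellite glia (median -0.17) and 9 of 10 of myelinating Schwann cells (-0.09). Without the shallow Control library these 2 medians were -0.01 and 0.01. The 6 tested genes of vagal sensory neurons ran the other way, with 5 positive fold changes and a median of 0.22 (0.28 without the shallow library and 0.21 without the library with Xist). Among them, Trpv1, the capsaicin receptor, was higher in HepDKO (median 1.03 CPM in Control, 1.47 CPM in HepDKO, log2 fold change 0.82, SE 0.37). In edgeR's test its unadjusted p was 0.0973 without the library with Xist and 0.0731 without the shallow one, with a log2 fold change of 0.76 in both. Piezo2, a mechanically gated channel, was the most abundant of the 6, at 46.3 to 95.6 CPM, with a log2 fold change of -0.04 (SE 0.12), the negative one of the 6.

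Of 6 brown fat markers, Ucp1 and Otop1 were lower in HepDKO at unadjusted p under 0.05, 0 were higher and 0 passed adjustment. The median log2 fold change was -0.71, while the summed brown adipocyte share differed by -0.11 on the log2 scale, as given above. The count of 2 was 1 without the library with Xist, without the third Control library at ZT4, without the first or the third Control library at ZT10, and over all 24 nodose libraries, and 3 by limma-voom. Ucp1 was 0, 1.37 and 42.2 CPM in the Control libraries at ZT4, and 136, 31.4 and 25.8 CPM at ZT10. In HepDKO libraries it was 2.68, 0.334 and 9.75 CPM at ZT4, and 16.7, 6.40 and 8.83 CPM at ZT10. The HepDKO values at ZT10 lay below the 3 Control values, and those at ZT4 lay among them. The log2 fold change of Ucp1 was -2.35 (SE 0.82). With the muscle score in the fit it was -1.67 (unadjusted p = 0.058). Otop1, a proton channel, had a median of 7.54 CPM (7.13 to 8.86) in Control and 4.60 CPM (3.67 to 8.81) in HepDKO, and 5 of 6 HepDKO libraries lay below every Control library. Cox8b, the muscle and brown fat form of a cytochrome oxidase subunit, had a log2 fold change of 0.05 (SE 0.34), so the members of the list differed among themselves.

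The remaining genes at that level were few in each list. Among 19 genes of endoplasmic reticulum stress, Chac1, a glutathione-degrading enzyme (log2 fold change -0.73, SE 0.27), and Asns, asparagine synthetase (-0.51, SE 0.24), were lower and 0 higher, and the median of the list was 0.00. Both are targets of ATF4. Asns did not reach that level without the library with Xist (-0.53, SE 0.26) or without the shallow one (-0.52, SE 0.25). Among 52 collagen and laminin chains, Col12a1 (0.80, SE 0.30) and Col20a1 (0.41, SE 0.16) were higher and Col10a1 (-0.42, SE 0.19) lower, with a median of 0.04. Col12a1 was 126 CPM in the first HepDKO library at ZT4 and 161 CPM in the second at ZT10, and at most 73.1 CPM in the other 10. Without the library with Xist its log2 fold change was 0.51 (SE 0.22), and Col10a1 no longer reached that level (-0.33, SE 0.20). Cnn1, calponin of smooth muscle, was higher (0.69, SE 0.30) among 7 genes of its list, with 28.7 CPM in the same first HepDKO library. Without the library with Xist (0.71, SE 0.33) or without the shallow one (0.69, SE 0.33) Cnn1 did not reach that level. Cox6a1 was the only one of 75 oxidative phosphorylation subunits at that level, and Rpl36a (-0.18, SE 0.070) the only one of 72 cytosolic ribosomal proteins. Without the shallow Control library 8 of the ribosomal proteins were lower at that level and 0 higher, with a median of -0.08. In that fit 222 of all 14607 genes were lower and 194 higher (2.85% together). With all libraries, 52 of the 72 ribosomal proteins had negative and 20 positive fold changes, with a median of -0.04.

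Hepatocyte markers had the largest median of any list, and it was near 0 without 1 library. All 6 markers had positive log2 fold changes, with a median of 1.20 and 0 at unadjusted p under 0.05. At that level 4 were higher without the third and 3 without the first HepDKO library at ZT10, and 2 by DESeq2. Alb, albumin, was 205 CPM in the library with Xist, 122 CPM in the third HepDKO library at ZT4, and 18.01 to 60.8 CPM in the other 10. Without the library with Xist the median of the list was 0.03.

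**Figure D3:**
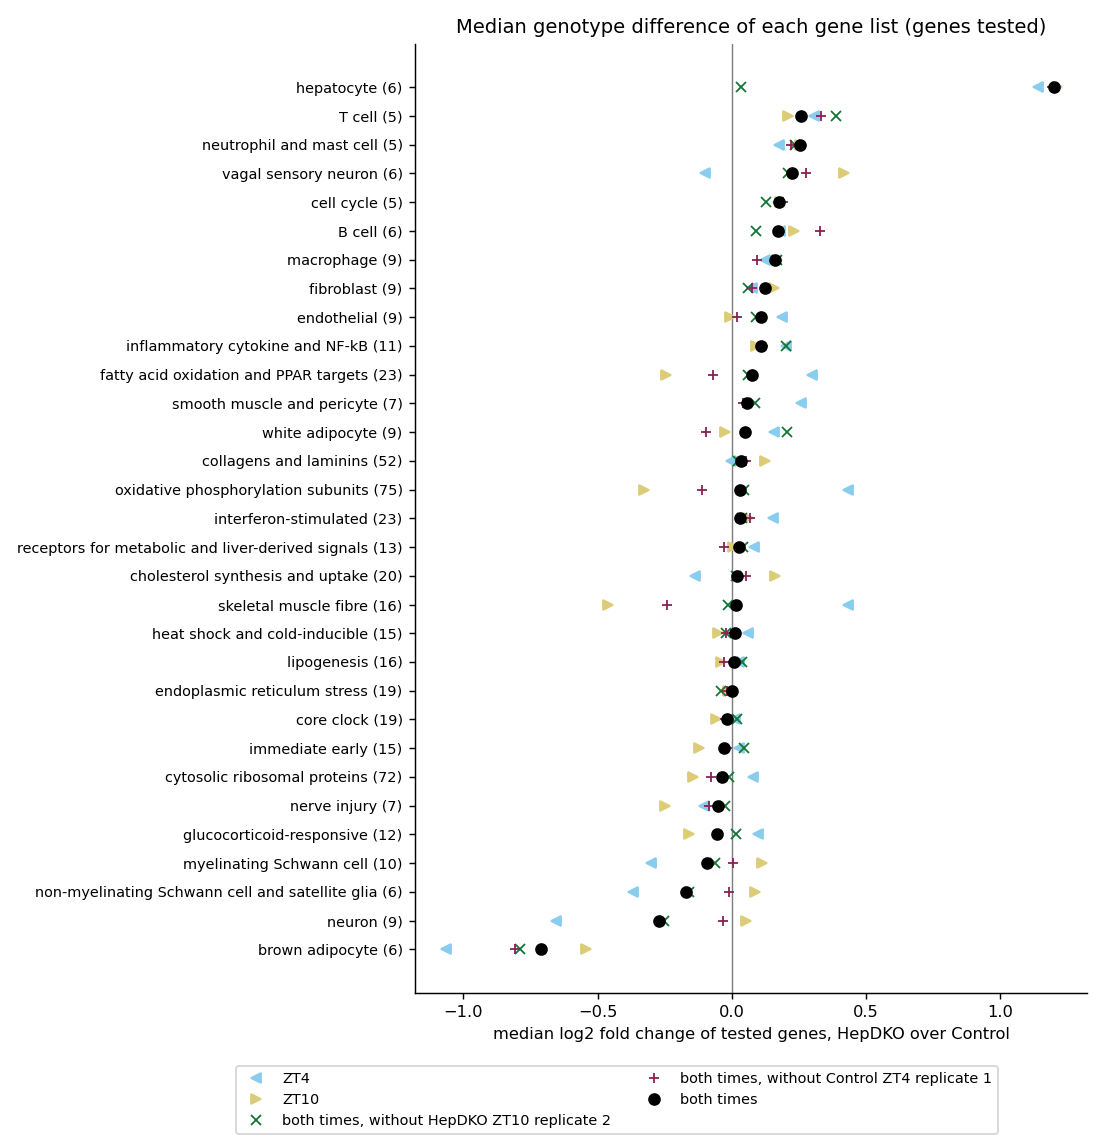
Median log2 fold change, HepDKO over Control, of each gene list with at least 5 tested genes (number in brackets), for both times together, for each time, and without each of the 2 libraries that stood apart. The hepatocyte median moves from 1.20 to 0.03 without the library with Xist, the neuron median from -0.27 to -0.03 without the shallow Control library, and muscle fibre genes lie at 0.43 at ZT4 and -0.46 at ZT10.

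With the muscle score as a covariate, 0 genes passed adjustment, 540 of 14417 were at unadjusted p under 0.05 (3.75%) against 316 (2.19%) without it, and the median SE of the log2 fold change went from 0.14 to 0.12. Of the 316 genes, 292 stayed at that level in the same direction, 248 genes were added and 0 of the 316 changed sign. With the white adipocyte score 351 genes were at that level (2.43%), and 280 of the 316 stayed. With both scores the number was 544 (3.77%), and 283 of the 316 stayed. All 20 genes with the lowest p, 10 in each direction, stayed at unadjusted p under 0.05 with the muscle score, with the fat score and with both. In 19 of the 20 the log2 fold change moved by less than 0.1 with the muscle score or with both, the exception being Mmp13, which had 6.13 with the muscle score and 5.75 with both. Without the library with Xist 165 of the 316 genes stayed at that level, and without the shallow Control library 210 stayed. All 20 genes with the lowest p stayed in both. These 20 were chosen for the lowest p in the same libraries, so that their staying was likely beforehand and gives them no support.

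Among the list members the covariates mattered in a few. Nefm moved from -0.78 to -0.60 with the muscle score, Ucp1 from -2.35 to -1.67, and Chac1 from -0.73 to -0.63. In the oxidative phosphorylation list, 6 genes were higher and 2 lower at unadjusted p under 0.05 with the muscle score, against 0 and 1 without it, with a median of 0.03 in both. Without the muscle score that median was -0.11 when the shallow Control library was left out, and -0.08 by limma-voom. With 1 surrogate variable the balance was the reverse, 2 higher and 6 lower, with a median of -0.02. In the list of the inflammatory genes the count of 4 higher was 3 with the muscle score and 4 with both scores. The brown fat list had 1 gene lower in place of 2 with either fit that held the muscle score.

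**Figure D4:**
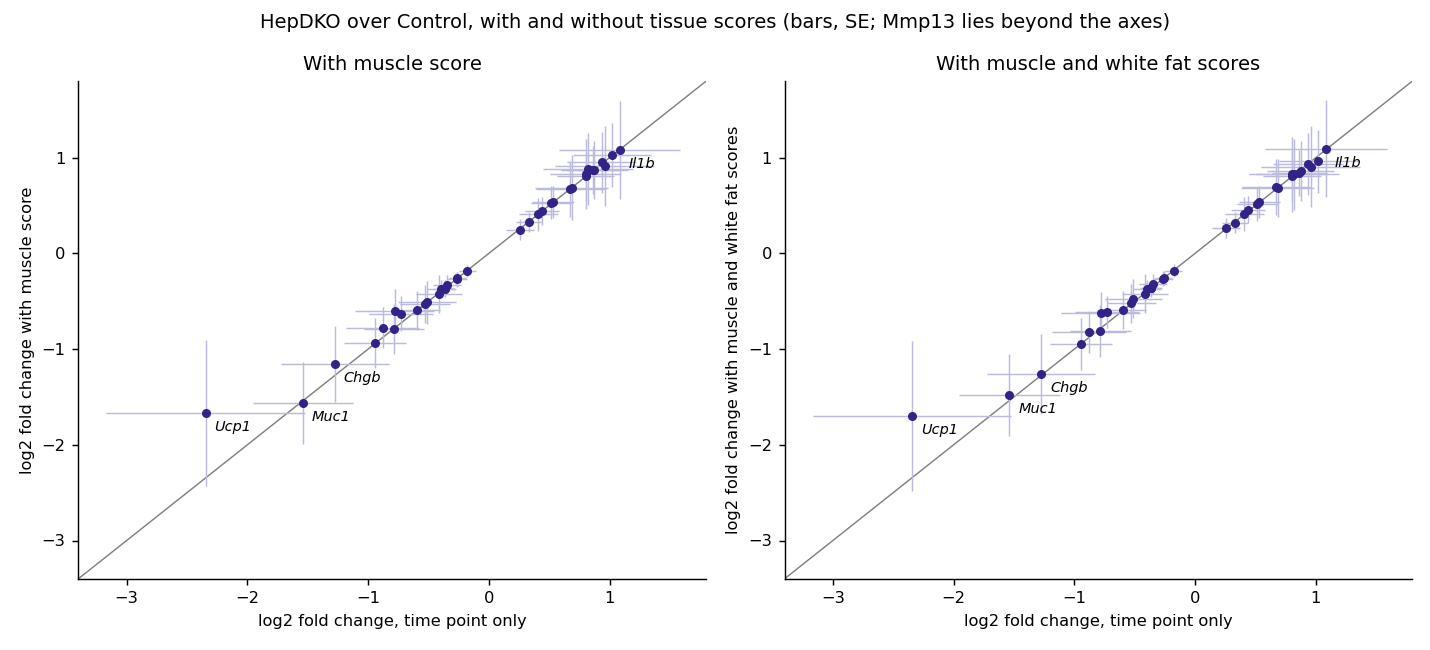
Log2 fold change, HepDKO over Control, of the genes named for low p and of list members at unadjusted p under 0.05, without tissue scores (x axis) and with the muscle score or both scores (y axis), with bars of 1 SE and the line of equality. Points lie along the line, Ucp1 lies above it (-2.35 without and -1.67 with the muscle score), and Mmp13 lies beyond the axes.

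The 2 times were then taken apart. At ZT4, 0 of 14417 genes (0%) passed adjustment, and 223 were higher (1.55%) and 211 lower (1.46%) at unadjusted p under 0.05. At ZT10 the number was 0 (0%), with 211 higher (1.46%) and 254 lower (1.76%). These unadjusted counts depended on the tool and on single libraries: the 465 genes at ZT10 were 1848 by limma-voom, 1319 without the third and 244 without the first Control library at ZT10, and the 434 at ZT4 were 1368 without the third and 285 without the shallow Control library at ZT4. The lowest p at ZT4 belonged to H4c1, a histone H4 gene (0.478, 0.392 and 0.406 CPM in Control, 1.83, 3.00 and 1.73 CPM in HepDKO, log2 fold change 2.34, SE 0.49), to Upf3a (-0.61, SE 0.15) and to Eif1ad (0.57, SE 0.14). At ZT10 it belonged to Tvp23a (2.67, 2.82 and 2.32 CPM in Control, 7.02, 5.57 and 6.37 CPM in HepDKO, log2 fold change 1.26, SE 0.25), to the zinc transporter Slc30a2 (-1.51, SE 0.31) and to Itih2, which encodes a serum protein that binds hyaluronan (0.79, SE 0.19). The values of H4c1 at ZT4 and of Tvp23a at ZT10 did not overlap between genotypes. Both were chosen for low p with 3 libraries against 3, so that this was likely beforehand. The share of all genes without overlap at a single time was not counted. The H4c1 levels in Control, at most 0.478 CPM, lie close to the lowest level that these depths resolve.

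A test of the difference between the genotype effects at ZT10 and ZT4 also gave 0 genes (0%), with 300 (2.08%) and 388 (2.69%) at unadjusted p under 0.05, positive and negative. Both directions together, these 688 genes were 2008 by limma-voom, 357 to 1835 with 1 library left out, and 447 without the shallow Control library. H4c1 (-2.89, SE 0.63), Eif1ad (-0.88, SE 0.19) and Sox6os (-2.96, SE 0.66) had the lowest p. Muscle genes had a median log2 fold change of 0.43 at ZT4 and of -0.46 at ZT10, oxidative phosphorylation subunits 0.43 and -0.33, and genes of fatty acid oxidation 0.30 and -0.24. Without the shallow Control library the ZT4 medians were 0.02, 0.16 and 0.12, and without the first Control library at ZT10 the ZT10 medians were -0.16, -0.15 and -0.05. Without the third Control library at ZT4 and at ZT10 the muscle medians were 1.03 and -0.73. These medians without single libraries were computed after the data had been seen. The mean muscle share stood at 8.37% ± 3.95 (SD, n = 3) in Control and 12.0% ± 2.09 (SD, n = 3) in HepDKO at ZT4, and at 15.8% ± 5.01 (SD, n = 3) and 13.2% ± 2.71 (SD, n = 3) at ZT10. With the muscle score in the fit the ZT4 medians of the 3 lists were 0.03, 0.12 and 0.10, and the ZT10 medians 0.04, -0.06 and 0.09. The muscle genes make up that score, so the shift of their own medians is built in. Beyond these values, the part of muscle content in the opposite medians at the 2 times was not tested. By DESeq2 and by limma-voom these 3 comparisons also gave 0 genes each.

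The light phase was set against the dark phase with the 12 nodose libraries collected at ZT16 and ZT22, in a fit over all 24. The difference in genotype effect, light minus dark, passed adjustment in 0 of 14867 genes (0%), with 329 (2.21%) positive and 249 (1.67%) negative at unadjusted p under 0.05, and in 0 genes by DESeq2 and limma-voom. Both directions together, these 578 genes were 1134 by limma-voom, 1107 without the first HepDKO library at ZT22, and 426 to 832 without any other single library. The 3 lowest p belonged to Adh7, an alcohol dehydrogenase that acts on retinol (difference 1.19, SE 0.29), Ror1, a receptor of the Wnt pathway (0.54, SE 0.14), and Lbp, the lipopolysaccharide-binding protein (0.54, SE 0.14). For Adh7 the log2 fold change was 0.46 in the light and -0.73 in the dark. Its median was 4.26 CPM in Control and 6.202 CPM in HepDKO libraries in the light, and 8.61 CPM and 4.87 CPM in the dark. Ror1 had 0.17 and -0.37, and Lbp 0.14 and -0.40.

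Time of day was tested in the same 12 libraries and the same fit. From ZT4 to ZT10, 7 genes rose and 11 fell, 18 of 14417 (0.125%), at an edgeR adjusted p under 0.05, and 819 (5.68%) were higher and 827 (5.74%) lower at unadjusted p under 0.05. Arntl, the BMAL1 gene, was 30.1, 30.9 and 19.3 CPM in Control and 38.9, 29.7 and 15.9 CPM in HepDKO libraries at ZT4. At ZT10 it was 2.496, 4.43 and 2.45 CPM in Control, and 3.07, 5.71 and 5.07 CPM in HepDKO. Every ZT10 library lay below every ZT4 library, and the log2 fold change was -2.78 (SE 0.26, edgeR adjusted p = 0.00075). Npas2, the partner of BMAL1, fell by 3.35 (SE 0.42, edgeR adjusted p = 0.011). Per2, a repressor of the loop, rose by 1.79 (SE 0.30), from a median of 20.9 to 81.6 CPM, and Tef, a PAR bZIP output factor, rose by 0.91 (SE 0.16), from a median of 119 to 266 CPM, both with an edgeR adjusted p of 0.0492. Npas2 passed in 18 of 24 alternatives, Per2 in 6 and Tef in 7, with adjusted p by edgeR, DESeq2 or limma of up to 0.106, 0.353 and 0.266.

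Outside the clock, Glul, glutamine synthetase, rose by 0.77 (SE 0.11) from ZT4 to ZT10, Rev1, a translesion DNA polymerase, rose by 0.47 (SE 0.065), and Inhbb, the inhibin beta B chain, rose by 1.00 (SE 0.18). Slc6a6, the taurine transporter, and Maco1 also rose. Among the genes that fell, Fbn1, fibrillin, fell by 0.81 (SE 0.14), Adamts15, a matrix protease, fell by 1.39 (SE 0.21), Mmp14, a membrane-bound metalloprotease, fell by 0.84 (SE 0.15), and Adam19 fell by 0.87 (SE 0.14). Marcks, Efnb2, Sat1, Clmp and Sh3pxd2b were the others that fell. The last 8 genes in order of p, Per2 and Tef included, were named after their values were seen. Of 52 collagen and laminin chains, 15 were lower and 1 higher at unadjusted p under 0.05 and 0 passed adjustment, of 24 genes of fatty acid oxidation 23 were tested with 9 higher and 1 lower, and of 12 glucocorticoid-responsive genes 8 were higher and 1 lower. Muscle and white fat markers also had positive medians, 0.53 and 0.71. Fibroblast markers had a median of -0.29, with 3 of 9 lower and 0 higher at unadjusted p under 0.05. Their mean share went from 0.97% to 0.71% in Control and from 1.01% to 0.79% in HepDKO. The part of fibroblast content in the lower collagens was not tested. With the white adipocyte score in the fit 1 gene passed, Arntl, with the muscle score 32 genes passed, and with both 22. Leaving out 1 library gave 1 to 40 genes: 5 without the shallow Control library, 18 without the library with Xist, of which 13 were among the first 18, and 40 without the third HepDKO library at ZT4. Besides Arntl and Npas2, Glul and Rev1 passed in 18 of the 24 alternatives, Marcks in 16 and the other 11 named genes outside the clock in 5 to 10. Arntl passed under each of the 24 alternatives, with an edgeR, DESeq2 or limma adjusted p of at most 0.0101.

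Of the 19 tested clock genes, 14 were higher and 3 lower at ZT10 at unadjusted p under 0.05, and 4 of them (Arntl, Npas2, Per2 and Tef) passed adjustment over all genes. The values in the 2 genotypes stood close to each other for most of them. Arntl had a log2 fold change of -3.02 (SE 0.38) in Control and -2.57 (SE 0.36) in HepDKO, Npas2 -3.12 (SE 0.61) and -3.59 (SE 0.61), Per2 1.83 (SE 0.45) and 1.74 (SE 0.43), Dbp 1.28 (SE 0.45) and 1.18 (SE 0.43), and Nr1d2 0.98 (SE 0.28) and 0.78 (SE 0.27). The difference between genotypes was 0.46 (SE 0.52) for Arntl, so a difference of the size of that error cannot be told from 0. Nfil3, a repressor of D-box genes, had the lowest p of the 19 for that difference, with 0.52 (SE 0.46) in Control and -0.88 (SE 0.43) in HepDKO (difference -1.40, SE 0.63, unadjusted p = 0.046), and it did not pass adjustment.

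**Figure D5:**
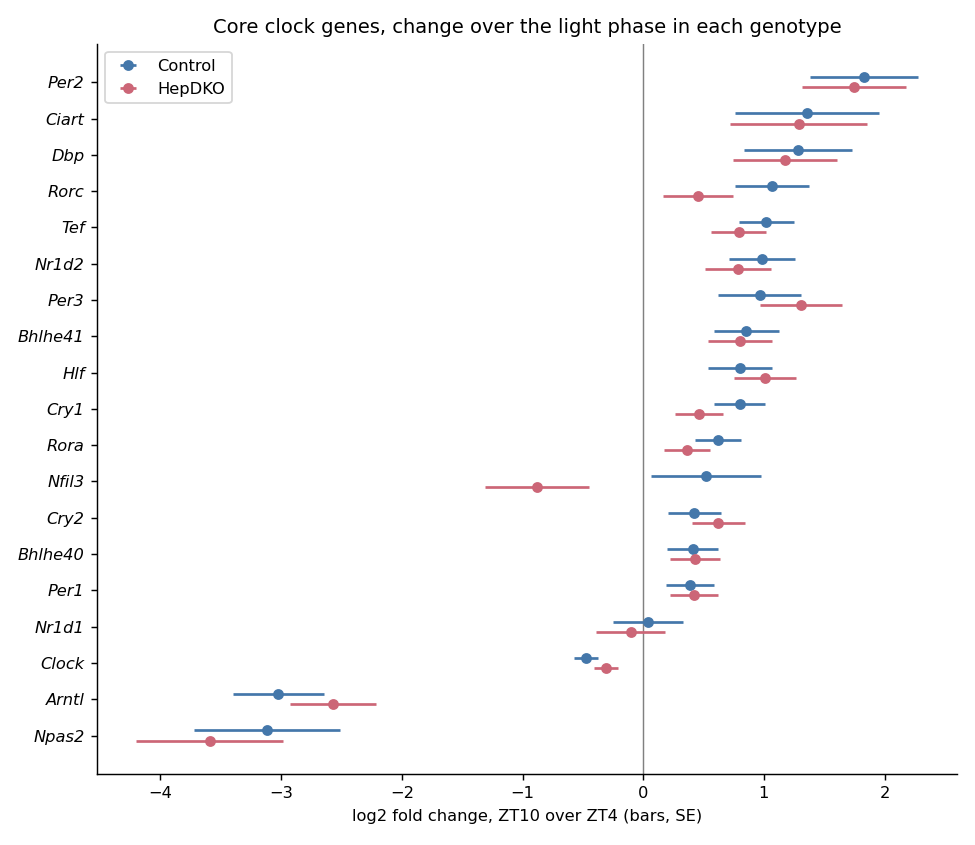
Log2 fold change from ZT4 to ZT10 of the 19 tested core clock genes in Control (blue) and HepDKO (red), with bars of 1 SE. Arntl (-3.02 and -2.57) and Npas2 (-3.12 and -3.59) lie far to the left and Per2 (1.83 and 1.74) to the right in both genotypes, and Nfil3 is the gene whose 2 points lie on opposite sides of 0 by more than their SE.

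Since REV-ERB acts through AGGTCA elements, the RefSeq promoter windows of the clock genes (GRCm38.p6, 250 bases before to 50 after the start) were searched for these 6 letters on both strands. Windows were found for 17 of the 20 listed clock genes, and 5 of those held a match. Of all 32851 windows, 16.3% held one, so that a match is common and is given only as a description. The matches of Arntl, the gene with the lowest p for time, and of Nr1d2, one of the targeted genes, are shown in 30 bases each, 5′ to 3′ on the gene's strand, with the match in capitals. They lie at chr7:113207530-113207559 (plus strand) and chr14:18239166-18239195 (minus strand). The match begins at base 32 after the start of the Arntl transcript whose window holds it, and 77 bases before that of Nr1d2.
Arntl: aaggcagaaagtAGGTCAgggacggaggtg
Nr1d2: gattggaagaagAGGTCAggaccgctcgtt
The genotype difference in light was 0.25 (SE 0.25) for Arntl and 0.05 (SE 0.19) for Nr1d2 on the log2 scale.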

How the data were processed

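Bulk RNA was sequenced from pooled left nodose ganglia (500 ng total RNA, KAPA RNA HyperPrep with RiboErase). The authors deposited whole-number read counts for each gene symbol, not normalized. The submitters' processing notes name FastQC 0.11.7, Trim Galore 0.6.10, STAR 2.7.10b and mm10, and the counting tool and annotation are not given in the sources used here. The count of reads of overlapping or near-identical genes may therefore be split between them.

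From these counts, genes passing edgeR's expression filter were fitted with the quasi-likelihood test (edgeR 4.0.16, R 4.3.3, TMM factors, time point as covariate, Benjamini-Hochberg adjustment, threshold 0.05). Tissue scores were mean log2 CPM (prior count 2) of marker lists. DESeq2 1.42.0, limma 3.58.1 (voom with quality weights) and sva 3.50.0 served as alternatives, beside other scaling, no filter, tissue scores, removal of 3 abundant RNAs, all 24 nodose libraries and leaving out each library. Fits were tested on simulated data with the same spread for every gene and no varying muscle or fat content, unlike the real libraries. Named genes are the 10 lowest p in each direction for genotype, up to 4 per list, 10 for time and 3 for the other comparisons. Some genes that the rule names are not reported here. The members and lists were chosen with earlier results of these data known. None of the 12 replicate pairs were duplicates (lowest chi-square per degree of freedom 8.12). Depth ran from 1813994 to 10422914 counts.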

Additional observations from a re-analysis of the deposited data

Results flagged for a closer look

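In each genotype's 6 libraries, the highest or lowest value was compared with the rest by Dixon's gap ratio (critical value 0.625). Of 94 groups of 6 values over 47 measures, 11 passed. For independent normal values about 1 in 20, or 4.7, would pass. These measures are linked and each group holds both times, so 11 cannot be judged against that number. Xist had 1694 counts in the second HepDKO library at ZT10, against 1 to 13 in the others. The same library was high in Mmp13 (46.1 CPM) and Mettl7b (4.45 CPM). The first Control library at ZT4, the shallowest, was high in neuron marker share (0.0141%), Snap25 (29.1 CPM) and Nefm (12.4 CPM). The second HepDKO library at ZT4 was high in neuron marker share (0.00698%) and Chgb (3.34 CPM). The second Control library at ZT4 was high in Meis2 (3.33 CPM) and Mmp13 (1.57 CPM), and the first Control library at ZT10 in Ucp1 (136 CPM, others 0 to 42.2).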

How the results depend on the processing

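The genotype effect in the light phase was 0 genes under every alternative but DESeq2, which gave 1, and the 4 other genotype comparisons were 0 under each alternative run. At unadjusted p under 0.05 its count was 316, 531 with no filter, 513 by limma-voom and 580 with 1 surrogate variable. The time effect, 18 genes, became 130 by DESeq2, 47 with 1 surrogate variable, 32 with the muscle score, 1 with the white adipocyte score, 7 without Rn45s, Lars2 and Mir6236, 28 over all 24 libraries and, chosen after seeing the data, 1 without both libraries that stood apart. Leaving out 1 library gave 1 to 40; the cause was not tested. With the replicate block it gave 21 (14 shared with the 18) and genotype 0. Of 18 pairs with the same number, 4 had a correlation over 0.1 (-0.47 to 0.25, median -0.01), and 36 pairs with different numbers had a median of 0.05. These correlations showed no pairing by number, and a shared batch was not tested. Of 2265 single-gene values under other settings 2148 passed adjustment in both fits, or in neither with a shift under 1 SE, 78 lost the threshold and 61 changed sign. Of 2304 with 1 library left out 2138 did so, 149 lost the threshold and 66 changed sign. No value that passed unadjusted p under 0.05 in either fit changed sign. Depth limits genes under a few CPM, above all in the shallowest library.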
